A study of Caenorhabditis elegans with 12 samples.

Results

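Embryos of Caenorhabditis elegans labelled as mutant for met-2 were set against embryos labelled as mutant for set-25. The members are the 6 libraries whose columns in the gene and repeat count tables are named for these genotypes, 3 labelled met-2 and 3 labelled set-25, called a, b and c here as in the column names, of 12 libraries in all. The labels give met-2(n4256) III for the first group and set-25(n5021) III for the second. The other 6 libraries, used below only as levels, are 3 of double mutants that carry both alleles and 3 of N2 (Bristol), the wild type. Ribosomal RNA was removed from total RNA of whole early embryos collected before the bean stage, 60 to 65 h after larvae were synchronized, from worms grown at 20 °C. Each mutation is 1 allele carried by every cell of the embryo, so no cell type is targeted, and a whole embryo mixes all its cells. The labels speak of 2 biological replicates where 3 libraries are listed, so the p-values measure the spread between libraries, part of which may be technical.

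In worm embryos lysine 9 of histone H3 (H3K9) is methylated by MET-2 and SET-25, both histone methyltransferases. MET-2, the relative of vertebrate SETDB1, is known for mono- and di-methylation, and SET-25 for tri-methylation. H3K9 methylation marks silent chromatin at the chromosome arms, transposons and tandem repeats, and helps to hold it at the nuclear periphery. A direct comparison of the single mutants asks which RNAs depend on which enzyme is missing.

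RNA of the mutated genes did not follow the labels in the same way in both groups. The met-2 gene, on chromosome III, had 225, 288 and 343 CPM (TMM-scaled counts per 1000000 gene counts) in libraries a, b and c labelled met-2, against 372, 407 and 351 CPM in set-25. Every library labelled met-2 was thus below every set-25 library. The gene averaged 59.4 CPM in the double mutant, with the same met-2 allele in its label, and 351 CPM in N2. The libraries labelled met-2 thus lay between the double mutant and N2, with library c close to N2, and the difference from set-25 was not called (log2 change -0.40, SE 0.19, adjusted p 0.174; edgeR's quasi-likelihood test, Benjamini-Hochberg adjustment). Beside that of the double mutant, the level of met-2 RNA therefore goes against the met-2 label, and "labelled met-2" is used throughout. The set-25 gene, also on chromosome III, had 81.1, 115 and 126 CPM in the libraries labelled met-2, against 45.4, 45.04 and 41.02 CPM in set-25, without overlap. It averaged 68.1 CPM in the double mutant and 213 CPM in N2. Its log2 change was 1.29 (SE 0.20), and it was not called either (adjusted p 0.113). The set-25 gene overlaps unc-64 and F56A8.8 on the other strand, and the sources used here do not say whether the counting used strand.

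Depth ranged between 23543963 and 25667207 gene counts per library in labelled met-2, and between 16929810 and 23924919 in set-25. Markers of the early embryo were present: 38 of 40 listed maternal and oocyte genes and 42 of 45 early zygotic genes passed the filter on low counts, against 1 of 6 vitellogenins, the yolk proteins of the adult gut. Most genes of differentiated tissues passed too, with 24 of 24 for muscle, 25 of 27 for neurons and 26 of 32 for epidermis. Passing the filter therefore does not set the stage of the embryos. The set-25 libraries differed more among themselves. The median over tested genes of the SD of log2 CPM between libraries was 0.23 in labelled met-2 and 0.36 in set-25, against 0.091 in the double mutant and 0.16 in N2. On the first principal component of the 6 libraries, which held 76.3% of the variance, labelled met-2 scored -50.4, -59.3 and -6.6 and set-25 scored 97.1, 30.9 and -11.6 for libraries a, b and c. Library c of set-25 thus stood among the libraries labelled met-2, beside their library c, and library a of set-25 stood farthest from all others. The main counts are given with and without these 2 libraries, for lists, X and repeat classes as medians or overlap counts of the remaining libraries.

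Of 13402 genes tested, 0 rose in labelled met-2 against set-25 (0%) and 3 fell (0.0224%) at an adjusted p under 0.05. At an unadjusted p under 0.05 there were 2221 higher and 1663 lower genes. DESeq2 called 994 higher and 417 lower, and limma voom, with a weight per group, called 0 and 3. In 2189 genes (16.3%) every library labelled met-2 lay above every set-25 library, and in 2349 genes (17.5%) every one lay below. Without set-25 library c the test called 2316 higher and 1385 lower genes, and without set-25 library a it called 125 and 19. Without labelled met-2 library b or c, or set-25 library b, 0 genes were called higher and 1 lower. In 1 fit with the double mutant and N2, in which all 4 genotypes share an estimate of the spread, 2205 genes were higher (15.5% of 14260) and 1324 lower (9.28%). Over all tested genes the log2 change had a median of -0.005.

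**Figure D1:**
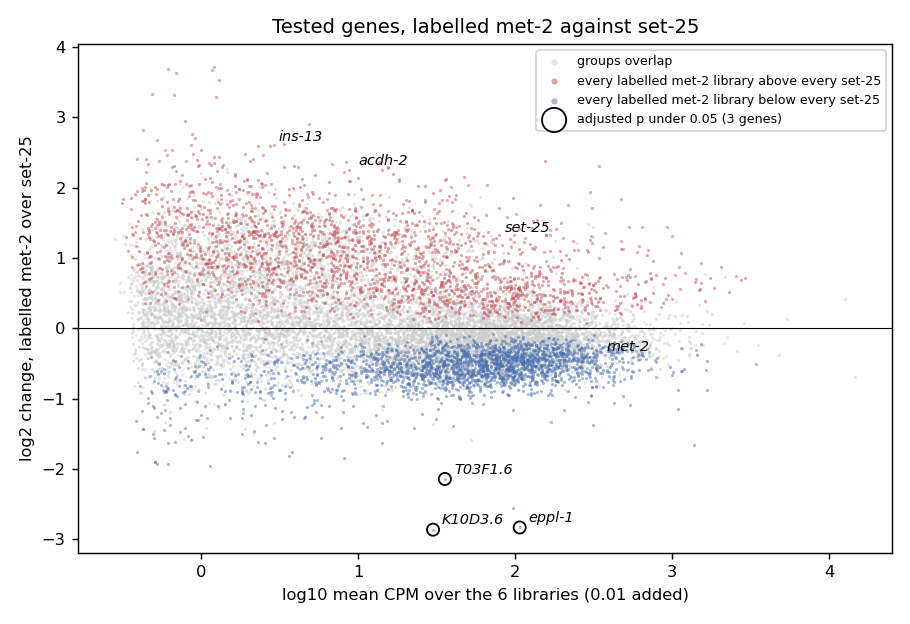
Each point is 1 of the 13402 tested genes, by its log10 mean CPM over the 6 libraries (x) and its log2 change, labelled met-2 over set-25 (y). Red and blue genes do not overlap between the groups, grey genes do, and the 3 called genes, circled, have log2 changes between -2.14 and -2.86, where the only other tested gene below -2.14 is C51F7.3.

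The 3 called genes were all high in set-25 alone. The first is eppl-1 (IV:8449353-8451759, WBcel235, minus strand), which encodes a relative of the enzyme ethanolamine-phosphate phospho-lyase. It had 26.97, 23.2 and 28.8 CPM in labelled met-2, against 173, 181 and 207 CPM in set-25. The lowest set-25 library was thus far above the highest library labelled met-2, and set-25 library c was the highest of all. The log2 change was -2.83 (SE 0.12, adjusted p 3.74e-04, edgeR's quasi-likelihood test). The double mutant averaged 15.1 CPM and N2 17.5 CPM, both under labelled met-2. It was called under each of 14 alternative settings and under 1 chosen after seeing the data.

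The second called gene, T03F1.6 (I:3839801-3841561, minus strand), had 12.4, 13.1 and 13.98 CPM in labelled met-2, against 51.9, 67.1 and 55 CPM in set-25. Its log2 change was -2.14 (SE 0.12, edgeR adjusted p 0.00809). The double mutant averaged 23.8 CPM and N2 18.1 CPM, so labelled met-2 was the lowest of the 4 genotypes here. The third, K10D3.6 (I:7116329-7116655, minus strand), a protein-coding gene with no symbol, had 9.39, 6.29 and 6.05 CPM in labelled met-2, against 65.4, 46.7 and 45.7 CPM in set-25. Its log2 change was -2.86 (SE 0.26, edgeR adjusted p 0.00809), with averages of 4.34 CPM in the double mutant and 3.46 CPM in N2. Both genes lost their call without labelled met-2 library b or c or set-25 library b, with adjusted p 0.0739 to 0.154 and log2 changes of -2.03 to -2.94. T03F1.6 also lost it without labelled met-2 library a (adjusted p 0.08) and with a replicate block by column letter (adjusted p 0.12).

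No gene next to the called ones was called. On either side of eppl-1, syx-4, a syntaxin gene, had 30.1, 22.02 and 33.8 CPM in labelled met-2, against 51.6, 41.2 and 26.7 CPM in set-25, and pdtf-1 had 190, 180 and 205 CPM, against 199, 181 and 174 CPM. Both overlap between the groups, with log2 changes of -0.48 and 0.06. Next to K10D3.6, the gly-19 gene had a log2 change of 0.14 and glr-3, which encodes a glutamate receptor, -0.26. Of the 3 annotated neighbours on each side of the 3 called genes, 14 of 18 were tested, and their adjusted p was 0.118 or above.

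**Figure D2:**
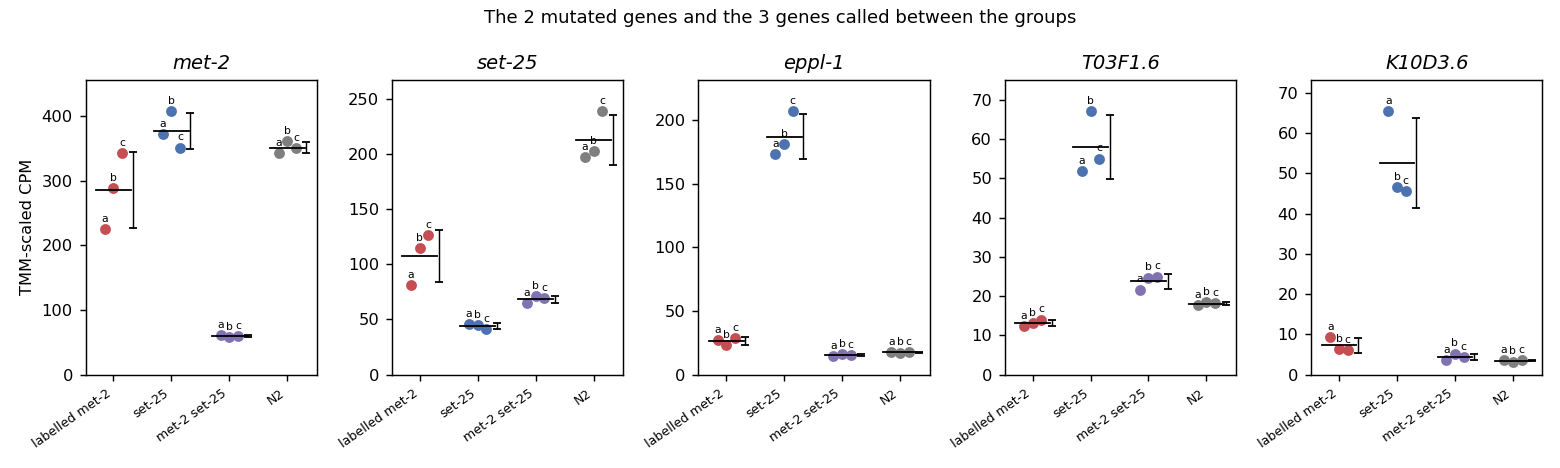
TMM-scaled CPM in each library (points, a to c) of the mutated genes met-2 and set-25 and of the 3 called genes, with the mean (bar) and SD (n = 3) of labelled met-2, set-25, the double mutant and N2. Each of the 3 called genes is high in set-25 alone, and met-2 RNA in labelled met-2 (225 to 343 CPM) is far above that of the double mutant (58.0 to 60.9 CPM).

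The 10 genes of smallest p on the higher side missed the threshold (edgeR adjusted p 0.0883 to 0.113), but none overlapped between the groups. The insulin-like peptide gene ins-13 had 4.98, 4.67 and 4.37 CPM in labelled met-2, against 1.01, 0.618 and 0.687 CPM in set-25 (log2 change 2.59, SE 0.20). Its neighbour acdh-2, an acyl-CoA dehydrogenase gene that overlaps it on the same strand of chromosome II, had 17.6, 13.2 and 12.4 CPM, against 3.08, 2.38 and 3.61 CPM (log2 change 2.25, SE 0.23). Reads in the shared stretch could have been counted for either gene. In N2 ins-13 averaged 2.56 CPM and acdh-2 9.43 CPM, so for both genes set-25 was below N2 and labelled met-2 above it. The gap junction gene inx-5 had 114, 128 and 98.9 CPM, against 49.9, 48.7 and 52.1 CPM (log2 change 1.18, SE 0.11).

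The rest of these 10 are metabolic or transport genes, hch-1 and set-25 itself. The cytochrome P450 gene cyp-13B1 had a log2 change of 1.67 and the UDP-glucuronosyltransferase gene ugt-46 1.65. The fatty acyl-CoA synthetase gene acs-17 had 1.27, nkb-1, a beta subunit of the sodium pump, 1.16, hch-1, a protease needed for hatching, 1.1, and the amino acid transporter gene aat-3 0.96. Of the 10, 6 lie on the X chromosome, which holds 14.6% of the tested genes with a position. The heat-inducible chaperone gene hsp-70, chosen after its values were seen, had 39.9, 64.7 and 39.4 CPM in labelled met-2, against 18.8, 15.9 and 11.5 CPM in set-25 (log2 change 1.64, SE 0.31, edgeR adjusted p 0.113). Both groups were above the 6.05 CPM of the double mutant and the 6.87 CPM of N2.

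On the lower side, the 7 genes that follow the called ones all had an edgeR adjusted p of 0.113 and no overlap. The snoRNA gene C51F7.3, which lies inside frm-7 on the same strand, had 48.4, 22.6 and 14.1 CPM in labelled met-2, against 160, 191 and 147 CPM in set-25 (log2 change -2.55, SE 0.53). The double mutant had 74.7 to 190 CPM and N2 129 to 223 CPM, both above every library labelled met-2. The purine salvage gene hprt-1 had 65.5, 51.1 and 62.1 CPM, against 155, 111 and 135 CPM (log2 change -1.17, SE 0.18). The DnaJ co-chaperone gene dnj-13 had 310, 310 and 301 CPM, against 560, 489 and 557 CPM (log2 change -0.80, SE 0.07). The spermidine synthase gene spds-1 had a log2 change of -0.99, the F-box gene fbxa-192 -1.35, C18D4.6 -1.42 and K03D7.1 -1.82. None of the 10 lower genes lies on X, K03D7.1 having no position in the annotation.

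The X chromosome differed from the autosomes across all tested genes. On X, 27.7% of 1912 tested genes were higher in labelled met-2 without overlap and 7.69% lower, and the median log2 change was 0.34. On the autosomes the shares were 12 to 16.6% higher and 15.4 to 21.9% lower, with medians of -0.14 to 0.05. X took 11.1, 11.7 and 10.5% of gene counts in the libraries labelled met-2, against 7.83, 9.05 and 9.83% in set-25, without overlap. Without set-25 library a, 31.4% of genes on X were higher and 10.9% lower without overlap, against 20.1 and 20.6% of all tested genes. Without set-25 library c the shares were 48.4 and 12.3%, against 30.2 and 28.5%. In the double mutant X took 9.72 to 10.1% and in N2 8.76 to 9.24%. Of 16 tested dosage compensation and sex determination genes, 1 was higher and 1 lower without overlap, with a median log2 change of 0.00. The part of dosage compensation in the difference on X was not tested. Autosome arms, where H3K9 methylation is concentrated, had 14.3% of genes higher and 19.4% lower, and the centres 13.7 and 19.7%. Arms and centres were cut by length alone, into equal outer and middle parts of each autosome, not by measured H3K9 methylation.

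**Figure D3:**
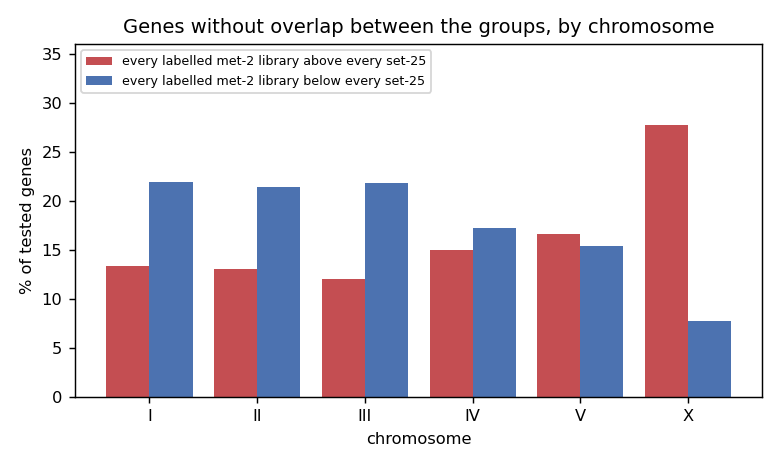
Share of tested genes per chromosome (%) in which every library labelled met-2 lay above (red) or below (blue) every set-25 library. X has 27.7% above and 7.69% below, where chromosomes I, II and III have 12 to 13.3% above and 21.4 to 21.9% below.

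The median log2 changes of gene lists differed in direction between genes of differentiated tissues and genes of the early embryo. No list held a gene called by edgeR over these 6 libraries, so list members are described by their overlap between groups, read against the 16.3% of all tested genes that were higher and the 17.5% that were lower, and by their median log2 change, read against -0.005. In bulk RNA, fewer cells of a type and less RNA per cell cannot be told apart. Without set-25 library c, edgeR called 16 epidermal genes and 17 col- collagens higher and 18 histone genes and 75 F-box genes lower, and without set-25 library a it called 5, 2, 2 and 1. For the following lists the median log2 change was nearer to 0 without set-25 library a and farther from 0 without library c. For epidermis it was 0.60 without library a and 1.1 without library c, and in the same order for col- collagens 0.71 and 1.51, for muscle 0.20 and 0.92, for pharynx 1.1 and 1.87 and for neurons 0.65 and 1.17. For histones it was -0.33 without library a and -0.72 without library c, and in the same order for F-box genes -0.30 and -0.65, for early zygotic genes -0.17 and -0.61, for small RNA genes -0.23 and -0.38 and for heterochromatin genes -0.22 and -0.28. The list of snoRNA, snRNA and similar genes turned to 0.10 without library a, against -0.20 with all libraries.

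Epidermal genes shared 1 direction. All 26 tested had a positive log2 change, 16 were higher in labelled met-2 without overlap and 0 lower, and the median was 0.79. Summed over the list, they had 13790, 13680 and 10720 CPM in labelled met-2, against 4390, 7425 and 8851 CPM in set-25. The groups did not overlap. N2 had 5708 to 7981 CPM, and the double mutant had 11230 to 11770 CPM, inside the range of labelled met-2. At an unadjusted p under 0.05, 18 of the 26 were higher, DESeq2 called 9, limma voom 0 and the fit of all 12 libraries 15. The most abundant member, the cuticle collagen gene dpy-17, had 2747, 1898 and 1516 CPM, against 789, 1127 and 1675 CPM (log2 change 0.78, SE 0.40), with set-25 library c inside the range of labelled met-2.

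Cuticle genes varied more within groups. The col- collagens had a median log2 change of 1.05 over 65 tested genes of 156, with 14 higher and 0 lower without overlap. Their summed level was 2086, 2011 and 1042 CPM in labelled met-2, against 292, 743 and 1256 CPM in set-25, so library c of set-25 was above library c of labelled met-2. N2 had 153 to 242 CPM and the double mutant 380 to 419 CPM. The most abundant, col-74, had 603, 497 and 233 CPM, against 20.6, 189 and 330 CPM, and the groups overlap. Of the cuticlins, which form the ridges of the cuticle, 3 of 4 tested genes were higher without overlap, with cut-3 at 154, 161 and 81.2 CPM, against 10.4, 41.9 and 79.9 CPM, where N2 averaged 0.218 CPM. Hedgehog-related genes, many of them expressed in epidermis, had 14 of 41 higher and 1 lower (median 1.18), and the most abundant of them, wrt-10, had a log2 change of 0.39.

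Other lists showed smaller counts in the same direction. The pharynx list had 5 of 13 genes higher and 0 lower without overlap (median log2 change 1.31), the intestine list 7 of 20 and 0 (0.59), the muscle list 6 of 24 and 0 (0.51) and the neuron list 5 of 25 and 1 (0.88). Summed muscle genes had 5074, 5866 and 3748 CPM in labelled met-2, against 2064, 3057 and 3688 CPM in set-25, where library c of both groups almost met. Summed pharynx genes overlapped between the groups through library c of each, and summed neuron genes through library c of set-25 alone. Among abundant members without overlap, pat-3, an integrin needed in muscle, had 1155, 1009 and 947 CPM, against 734, 797 and 789 CPM (log2 change 0.42). The gut brush border gene erm-1 had 278, 272 and 249 CPM, against 168, 212 and 195 CPM (log2 change 0.47). Neuropeptide genes had 14 of 54 higher and 0 lower, and C-type lectins 11 of 64 and 3. The higher shares of the neuron list and of the C-type lectins were near the 16.3% of all tested genes. Without set-25 library a they were 20 and 21.9%, against 20.1% of all tested genes, and without library c 68 and 53.1%, against 30.2%.

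Genes of xenobiotic metabolism were on the same side. Of 46 cytochrome P450 genes tested, 15 were higher and 3 lower without overlap (median log2 change 0.64), and of 56 UDP-glucuronosyltransferase genes 15 were higher and 1 lower (0.44). Their summed levels did not overlap: cytochrome P450 genes had 781, 686 and 570 CPM in labelled met-2, against 495, 427 and 491 CPM in set-25. The most abundant, cyp-29A2, had 148, 114 and 110 CPM, against 93.1, 77.6 and 80.8 CPM, and 44.6 CPM in N2. Nuclear hormone receptors, with 15 of 188 higher and 22 lower, did not share this direction (median 0.01).

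**Figure D4:**
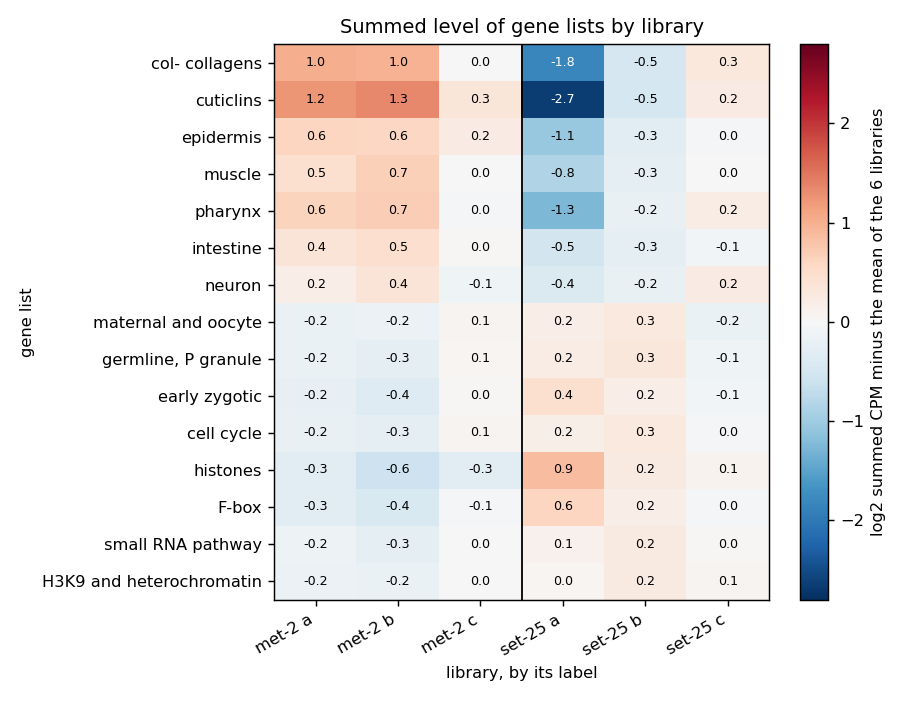
Summed CPM of 15 gene lists (rows) in the 3 libraries labelled met-2 and the 3 of set-25 (columns), as log2 minus the mean of the 6 libraries. Tissue and cuticle lists are high in labelled met-2 a and b and low in set-25 a, histone and F-box lists the reverse, and library c of both groups lies nearer to 0 on most lists, with summed histone genes in labelled met-2 c (7615 CPM) as low as in library a (7827 CPM).

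Histone genes were on the opposite side. Of 33 tested of 72 listed, 17 were lower in labelled met-2 without overlap and 0 higher, with a median log2 change of -0.62. Summed, they had 7827, 6403 and 7615 CPM, against 17340, 11300 and 10190 CPM in set-25. Both groups were below the 24260 to 27640 CPM of N2 and the 20010 to 23610 CPM of the double mutant. The histone gene his-3 had 1363, 959 and 1199 CPM, against 2942, 1986 and 1529 CPM (log2 change -0.87, SE 0.31). DESeq2 called 12 of the 33 lower, limma voom 0. Histone genes are near-identical copies, and the sources used here do not say how the authors' counting shared reads between copies.

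F-box genes, a large family of substrate adaptors of ubiquitin ligases, had 83 of 218 tested lower without overlap and 4 higher, with a median log2 change of -0.51. Their summed level was 4964, 4539 and 5851 CPM in labelled met-2, against 9189, 6911 and 5973 CPM in set-25, and again library c of each group lay closest to the other group. The MATH and BTB domain genes, also linked to protein turnover, had 15 of 50 lower and 1 higher (median -0.42). At an unadjusted p under 0.05, 77 F-box genes and 14 MATH or BTB genes were lower. DESeq2 called 22 and 4 of them lower, and limma voom 0 and 0. The most abundant F-box gene, fbxc-51, had 619, 688 and 835 CPM, against 737, 974 and 884 CPM, and the groups overlap.

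Lists that mark the early embryo had medians below that of all genes. With all 6 libraries, the share of their members lower without overlap was near or below the 17.5% of all tested genes. Early zygotic genes had a median log2 change of -0.41, with 5 of 42 lower without overlap and 0 higher, and vet-2 had 904, 746 and 1107 CPM, against 1442, 1306 and 1013 CPM. Maternal and oocyte genes had 7 of 38 lower and 1 higher (median -0.20), P granule genes 4 of 20 and 0 (-0.28) and cell cycle genes 6 of 41 and 1 (-0.27). Without set-25 library c the lower shares of these lists were, in the same order, 47.6, 50, 50 and 53.7%, against 28.5% of all tested genes. Without set-25 library a they were 11.9, 18.4, 20 and 19.5%, against 20.6%. Summed maternal genes had 4295, 4387 and 5181 CPM in labelled met-2, against 5537, 5866 and 4288 CPM in set-25. The 2 groups overlapped through library c of set-25 alone, which was below every library labelled met-2. All 6 libraries were far below the 11670 to 14870 CPM of N2 and the 10580 to 12070 CPM of the double mutant. The abundant maternal kinase gene mbk-2 had 451, 564 and 497 CPM, against 389, 459 and 439 CPM, and 789 CPM in N2. The part that these tissue and stage markers have in the other differences between the groups was not tested.

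Genes of the silencing and repair pathways had moderate shifts to the lower side. Of 40 tested H3K9 and heterochromatin genes, 10 were lower without overlap and 1, set-25, higher (median log2 change -0.24). The chromatin remodeller gene let-418, the most abundant of them, had 1906, 1878 and 2171 CPM in labelled met-2, against 1747, 2761 and 2354 CPM in set-25, with overlap. Small RNA pathway genes had 17 of 42 lower and 1 higher (median -0.26). The nuclear Argonaute gene nrde-3, which acts in heritable nuclear RNA interference, had 380, 305 and 374 CPM, against 517, 580 and 483 CPM (log2 change -0.58, SE 0.13, edgeR adjusted p 0.113). The double mutant averaged 736 CPM and N2 664 CPM, above both groups.

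Genes of DNA repair and of R-loop removal had 11 of 39 lower and 0 higher without overlap (median -0.31). The most abundant, the mRNA export gene aly-3, had 532, 523 and 723 CPM, against 1160, 800 and 643 CPM, with overlap. Apoptosis genes showed no common direction, with 2 of 20 higher and 3 lower (median -0.06), and the corpse engulfment gene ced-7 was among the higher at 560, 554 and 592 CPM, against 343, 476 and 416 CPM. Cytosolic ribosomal protein genes had 11 of 75 lower and 0 higher (median -0.17), with rps-2 at 825, 593 and 586 CPM, against 1007, 797 and 1184 CPM. Stress response genes had 4 of 12 higher and 1 lower (median 0.26). The reporter of unfolded protein stress in the endoplasmic reticulum, hsp-4, had 505, 469 and 492 CPM, against 421, 449 and 338 CPM (log2 change 0.28). Of 113 tested snoRNA, snRNA and similar genes 21 were lower and 8 higher, and of 377 expressed pseudogenes 59 were lower and 28 higher. The lower shares of these 2 lists and of the ribosomal protein genes were near the 17.5% of all tested genes.

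Repeat families are the sequences that H3K9 methylation is best known for silencing. Their share of all counts was 1.06 ± 0.0792% in labelled met-2 and 1.11 ± 0.0324% in set-25 (SD, n = 3 each), a difference of -0.0545 percentage points (two-sided exact permutation p 0.4, where 3 against 3 cannot go below 0.10). Without labelled met-2 library c the difference was -0.01 percentage points, and without library a -0.0857. Single families differed in both directions. Of 244 families tested of 392, 11 rose in labelled met-2 (4.51%) and 1 fell (0.41%) at an edgeR adjusted p under 0.05. In 99 families (40.6%) every library labelled met-2 lay above every set-25 library and in 8 (3.28%) below, and the median log2 change was 0.41. At an unadjusted p under 0.05, 91 families (37.3%) were higher and 8 lower. DESeq2 called 62 and 8, limma voom 45 and 7, and the fit of all 12 libraries 107 (41.6% of 257) and 8 (3.11%).

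The shift in the median depends on the scaling. With the repeat table scaled by its own TMM factors in place of those of the genes, the median log2 change of the families was -0.03 and 0 were called higher and 1 lower. At an unadjusted p under 0.05, 11 were then higher and 25 lower, against 91 and 8 with the scaling of the genes. The calls also rest on single libraries: without labelled met-2 library b, or without set-25 library b, 0 families were called. Without set-25 library c 55 were called higher and 10 lower, and without set-25 library a 16 and 1. Without labelled met-2 library c, 1 was called higher.

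CELE45, the family with the most counts, was the 1 that fell. It had 3115, 1442 and 1846 CPM in labelled met-2, against 6102, 5979 and 3420 CPM in set-25. The groups came closest between library a of labelled met-2 and library c of set-25. The log2 change was -1.28 (SE 0.43, edgeR adjusted p 0.0497), and the call was lost without labelled met-2 library b or c, or set-25 library a or b (adjusted p 0.102 to 0.183). It was also lost with RLE factors (adjusted p 0.054), with no filter on low counts (0.124) and with the repeat table's own TMM factors (0.134). With a collagen covariate, chosen after seeing the data, the adjusted p was 0.321. The double mutant had 6235 to 7270 CPM and N2 6516 to 8862 CPM, above every library of both groups. Labelled met-2 lay farthest below them, and set-25 library c, at 3420 CPM, lay near library a of labelled met-2. CELE45 alone took 28.3, 13.6 and 18.9% of repeat counts in labelled met-2, against 52.2, 48.6 and 31.9% in set-25. All other families together had 7893, 9174 and 7940 CPM in labelled met-2, against 5584, 6334 and 7292 CPM in set-25, without overlap.

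The CELE and palindrome families gave 7 of the 11 families that rose. CELE46A had 216, 287 and 237 CPM in labelled met-2, against 127, 137 and 167 CPM in set-25 (log2 change 0.78, SE 0.17, edgeR adjusted p 0.0435). CELE46B had 150, 208 and 178 CPM, against 104.4, 110.5 and 107.4 CPM (log2 change 0.74), and the palindrome family PALTTAA1_CE 109, 150 and 135 CPM, against 68.0, 76.7 and 77.8 CPM (log2 change 0.82). In all 3, set-25 lay close to the double mutant and to N2, and labelled met-2 was above the other genotypes. CELE1 (0.65), CELE11 (0.77), CELE7 (0.66) and PALTTAA3_CE (0.59) had log2 changes of similar size. In PALTTAA3_CE the highest N2 library, at 202 CPM, was above the lowest library labelled met-2, at 191 CPM.

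The other 4 were from different classes. CeRep56 had the largest log2 change of the 11, 1.74 (SE 0.46, edgeR adjusted p 0.0445), with 124, 163 and 65.4 CPM in labelled met-2, against 24.03, 38.5 and 42.7 CPM in set-25. N2, at 41.8 to 67.3 CPM, overlapped both groups. The Helitron family NDNAX2_CE, a rolling-circle DNA transposon, had 45.5, 48.9 and 38.3 CPM, against 17.98, 27.4 and 28.8 CPM (log2 change 0.84), and the double mutant averaged 39.5 CPM. HAT1_CE, a cut-and-paste DNA transposon family, had a log2 change of 0.67. The simple repeat (CGA)n had 11.9, 12.3 and 14.6 CPM, against 6.68, 8.48 and 5.90 CPM (log2 change 0.88), and the double mutant was higher than either, at 17.3 to 22.6 CPM.

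**Figure D5:**
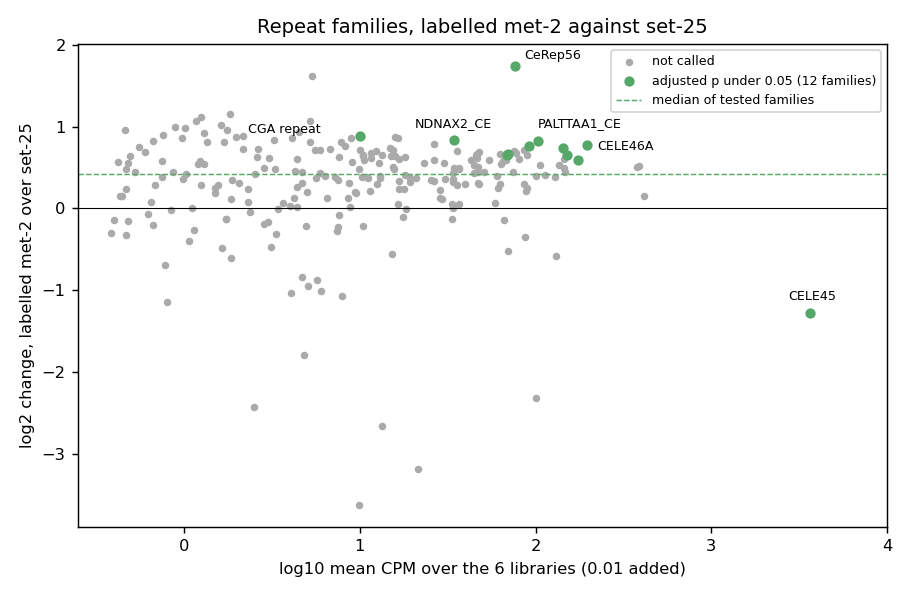
Each point is 1 of 244 tested repeat families, by log10 mean CPM over the 6 libraries (x) and log2 change, labelled met-2 over set-25 (y). Of the 12 called families (green) 11 lie above the dashed median of 0.41, and CELE45, the family with the most counts, lies at -1.28.

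By class, shares of families without overlap are read against the 40.6% of all tested families that were higher and the 3.28% that were lower. Palindrome families had 18 of 29 higher and 0 lower, CELE families 13 of 14 and 1, CeRep and CERP families 10 of 16 and 0 and Helitrons 8 of 10 and 0. DNA transposons, with 17 of 37 (45.9%) higher and 1 lower, and non-LTR retrotransposons, with 5 of 11 and 0, were near the share of all families. Simple repeats, the class with the most families, were below it with 11 of 75 (14.7%) higher and 2 lower, and low-complexity families had 0 of 7 on either side. LTR retrotransposons, which copy themselves through RNA, had 10 of 35 (28.6%) higher and 4 lower. Without set-25 library a, where 42.6% of all families were higher, the shares were 69% in palindrome families, 48.6% in DNA transposons and 16% in simple repeats. Without library c, where 52.9% were, they were 79.3, 59.5 and 30.7%. The internal part of CER3, CER3-I_CE, had 7.41, 3.46 and 4.57 CPM in labelled met-2, against 9.47, 11.97 and 10.9 CPM in set-25 (log2 change -1.07, SE 0.33), and that of CER2, CER2-I_CE, 3.17, 3.80 and 3.44 CPM, against 5.53, 7.73 and 6.82 CPM (log2 change -0.95). Both just missed the threshold at an edgeR adjusted p of 0.0518. For CER3-I_CE the double mutant averaged 11.1 CPM, at the level of set-25, and N2 3.05 CPM, nearer to labelled met-2.

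Telomeric repeats overlapped between the groups. The (TTAGGC)n repeat had 66.1, 53.8 and 37.6 CPM in labelled met-2, against 26.5, 43.4 and 39.2 CPM in set-25 (log2 change 0.53, SE 0.32, edgeR adjusted p 0.13). A few repeat families were far higher in 1 library than in any other. The (TAGA)n repeat had 2.64, 7.38 and 2.62 CPM in labelled met-2, against 2.16, 0.662 and 113 CPM in set-25, and CeRep55 had 15.9, 57.2 and 27.3 CPM, against 18.2, 10.1 and 473 CPM. These families, chosen after their values were seen, were by far highest in library c of set-25, and N2 library c had 73.9 CPM of CeRep55. Their log2 changes of -3.19 (SE 2.25) and -2.32 (SE 1.80) were not called.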

How the data were processed

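The authors deposited raw counts per gene and raw counts per repeat family, whole numbers with no scaling, per the file headers and the values; a further deposited column, in other units, gives the authors' width in bases and was not used in a test. Neither the aligner, the genome build and the counter nor the strand setting and the treatment of reads with several matches is stated in the sources used here. Columns were assigned to genotypes by name. Of 27904 genes, 27163 (97.3%) matched the WBcel235 annotation of Ensembl, which gave positions and symbols.

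The 3 libraries labelled met-2 and the 3 of set-25 were fitted with edgeR 4.0.16 (R 4.3.3) by its robust quasi-likelihood test, with TMM scaling, the filter for low counts by genotype, two-sided p and Benjamini-Hochberg adjustment over all features tested, with a threshold of 0.05 and no fold threshold. Only these groups entered, since the double mutant spreads less. The repeat table had its own fit, in which library sizes were those of the gene fit. CPM is TMM-scaled, and the SE comes from replicate log2 CPM with a prior count of 2. DESeq2 1.42.0 and limma 3.58.1 were alternatives. The scripts were tested on simulated data. Depth per library is given with the results and limits precision at low CPM.

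The members and gene lists were chosen with earlier results of these data known. The text names met-2 and set-25; called genes changed at least 2-fold with at least 1 CPM and no overlap; with fewer than 5 in a direction, the 10 of smallest p; per list the called members of smallest p or, with none, the most abundant; and called repeat families. Other names are said to be chosen after their values were seen, as are CER2-I_CE, CER3-I_CE, (TTAGGC)n and the neighbours of called genes. A collagen covariate, and list, X and repeat class values without set-25 library a or c, were added after seeing the data.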

Additional observations from a re-analysis of the deposited data

How the results depend on the processing

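The number of called genes depends on library choice more than on scaling. Against 0 higher and 3 lower genes, leaving out 1 library gave 0 to 2316 higher and 1 to 1385 lower, with the highest counts without set-25 library c. The fit of all 12 libraries gave 2205 and 1324, DESeq2 994 and 417 and no filter on low counts 317 and 76. RLE factors, library totals, limma voom and thinning to the smallest total gave 0 and 3 each, and a collagen covariate, chosen after seeing the data, 17 and 21. Of the 3 called genes, each kept its direction throughout. Against 11 higher and 1 lower repeat families, leaving out 1 library gave 0 to 55 and 0 to 10. The fit of 12 gave 107 and 8, DESeq2 62 and 8, limma voom 45 and 7, library totals 48 and 3, thinning 18 and 3, RLE factors 7 and 0, no filter 7 and 0, the repeat table's own TMM 0 and 1 (0 of them shared) and the collagen covariate 0 and 0. With the collagen covariate the log2 change turned to 0.047 for aly-3 and to -0.598 for col-74. The difference in the share of counts in repeats ranged between -0.0857 and -0.01 percentage points when 1 library was left out. The cause of these shifts was not tested.

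The column letters share no origin in the sources used here, and same-letter deviations correlated at -0.35 for a, 0.10 for b and -0.72 for c, so the deviations show no pairing by letter. The share of ribosomal RNA was highest in b and lowest in c in all 4 genotypes, so an origin shared by letter is not excluded. A replicate block by letter called 0 genes higher and 2 lower, T03F1.6 being lost (adjusted p 0.12), and 3 repeat families higher and 1 lower. Depth sets a limit for genes near 1 CPM, such as ins-13 with 47 counts over the set-25 libraries.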
